A study of Rattus norvegicus with 9 samples.

Results

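The claudins described here are 10 of the 32883 genes in the deposited liver table, taken as the rows whose gene symbol is Cldn1, Cldn2, Cldn3, Cldn4, Cldn5, Cldn6, Cldn7, Cldn12, Cldn14 or Cldn23. The measurements came from bulk RNA sequencing of liver from 9 rats, with 1 library per rat and 3 rats in each group. Rats of the normal control group (N1, N3 and N12) received a normal diet and no carcinogen. Rats of the DEN model group (M13, M17 and M24) were injected intraperitoneally each week with 0.01% diethylnitrosamine (DEN), a liver carcinogen, on a schedule of 16 weeks. Rats of the PZH administration group (G27, G28 and G42) received the same DEN injections and were also given PZH (Pien-Tze-Huang), a traditional Chinese medicine formula. The study's methods describe the animals as male Sprague-Dawley rats. Animals were taken at several times up to the end of the injections, and the week of collection, the age and the PZH dose (low or high) of the sequenced rats were not given in the sources used here. The treatment tag of the M rats names PZH, as that of the G rats does. The letter of the rats' names was used in its place, with M for the DEN model.

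Claudins are small proteins with several membrane spans that form the strands of tight junctions, the belts that seal neighbouring epithelial cells to each other. Some claudins tighten the seal and others form pores that let ions or water pass between cells. In liver, tight junctions between hepatocytes close off the bile canaliculi and keep bile apart from blood, while the cells of the bile ducts and the endothelium of the vessels carry claudin sets of their own.

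Total counts per rat ranged from 14922973 to 27161496, with rat G27 the deepest. Levels are given as CPM, counts scaled to libraries of equal size, after adjustment by TMM, edgeR's normalization factor. The factor was 0.731 to 0.799 for normal control rats, 1.21 to 1.58 for DEN model rats and 0.863 to 0.941 for PZH administration rats. On this scale 3 counts were worth between 0.125 and 0.252 CPM, which covers counting error only. Scaling by library totals instead moved the median of all genes on the log2 scale by 0.87 in DEN model against normal control, by -0.67 in PZH administration against DEN model and by 0.23 in PZH administration against normal control. Hepatocyte markers (Alb, Ttr, Cps1, Ass1, Apoa1, Serpina1, Hnf4a and Tat, all 8 in the table) were above 0 in every rat. Their sum was 126500 to 135400 CPM in normal control, 20280 to 49500 CPM in DEN model and 92590 to 129500 CPM in PZH administration rats. Most of it in normal control was Alb, at a mean of 94900 CPM. In edgeR's test of DEN model against normal control, 5 of the 8 were lower at an adjusted p under 0.05. Cps1, Apoa1 and Serpina1 were not called.

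The stretches before the annotated starts of Cldn6 and Cldn7, which were higher in the DEN model group, and of Cldn1 and Cldn14, which were lower there, are shown to let the members be compared at their promoters. They come from RefSeq on build GRCr8, where 7 of the 10 members had a promoter window of 250 bases before and 50 bases after a start. Cldn2, Cldn4 and Cldn23 had none. The 250 bases before the start lie at chr10:13215558-13215807 on the plus strand for Cldn6, at chr10:55188420-55188669 on the plus strand for Cldn7, at chr11:87926126-87926375 on the plus strand for Cldn1 and at chr11:46711739-46711988 on the minus strand for Cldn14. Capitals mark CAGGTG, the core of the E-box known from Snail-type repressors, on either strand (CACCTG on the other), and the capitals that end the Cldn7 line are the first 3 bases of a match that runs across the start.
Cldn6: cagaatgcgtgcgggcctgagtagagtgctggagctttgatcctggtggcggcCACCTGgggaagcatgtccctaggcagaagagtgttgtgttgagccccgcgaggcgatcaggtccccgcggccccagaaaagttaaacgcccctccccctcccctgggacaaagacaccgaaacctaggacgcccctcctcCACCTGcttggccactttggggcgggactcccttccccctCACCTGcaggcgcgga
Cldn7: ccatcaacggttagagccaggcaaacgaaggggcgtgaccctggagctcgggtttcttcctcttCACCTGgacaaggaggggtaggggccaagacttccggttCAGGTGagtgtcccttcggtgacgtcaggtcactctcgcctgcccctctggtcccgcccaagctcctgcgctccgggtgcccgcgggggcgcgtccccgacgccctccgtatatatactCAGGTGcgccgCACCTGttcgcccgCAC
Cldn1: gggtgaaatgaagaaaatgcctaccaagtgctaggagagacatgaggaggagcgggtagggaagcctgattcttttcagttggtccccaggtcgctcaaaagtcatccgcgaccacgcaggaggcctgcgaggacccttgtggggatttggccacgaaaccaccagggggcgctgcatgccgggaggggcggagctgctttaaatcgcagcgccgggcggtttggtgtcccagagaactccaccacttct
Cldn14: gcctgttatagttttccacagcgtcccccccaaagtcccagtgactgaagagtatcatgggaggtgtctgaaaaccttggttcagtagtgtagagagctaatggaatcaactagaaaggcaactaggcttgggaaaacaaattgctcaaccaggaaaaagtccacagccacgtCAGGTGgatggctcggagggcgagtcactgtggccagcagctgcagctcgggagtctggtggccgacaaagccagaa

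CAGGTG occurred 5 times in the Cldn7 window, 3 times in that of Cldn6 and once each in those of Cldn14 and Cldn3, and it did not occur in the windows of Cldn1, Cldn5 and Cldn12. Of 33469 RefSeq rat promoter windows of 300 bases, 18.8% held CAGGTG at least once, 0.359% held it 3 or more times, and 4 windows held it 5 or more times. GC content of the 250 bases before the start was 65.6% for Cldn7, 64.4% for Cldn6, 59.2% for both Cldn1 and Cldn3, 58.4% for Cldn5, 52.4% for Cldn14 and 36.4% for Cldn12, and the median over all windows was 51.2%. AACCNGTT, the motif of grainyhead-like factors (in 2.1% of all windows), TGACTCA, the AP-1 motif (4.63%), and the TATA box TATAAA (14.2%) were searched on both strands and were not found in the windows of the 7 members. TTTATN, a Cdx motif that also covers the other strand of TATAAA, was found 4 times in the Cldn12 window and in none of the other 6, beside 42.5% of all windows. These matches describe letters in a window and are not evidence of binding.

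In normal control liver the claudin mRNA was mostly that of Cldn3 and Cldn1, with Cldn14 and Cldn12 next. Levels of different genes were compared in the deposited FPKM, which is scaled for transcript length. Cldn3, a sealing claudin of many epithelia, had 68.7 ± 20.3 FPKM (SD, n = 3) and Cldn1, a sealing claudin needed for the barrier between bile and blood, had 53.9 ± 2.90 FPKM (SD, n = 3), and the ranges of the pair overlapped. Cldn14, a barrier claudin of liver, kidney and inner ear, had 20.9 ± 4.98 FPKM (SD, n = 3) and overlapped Cldn12, an unusual claudin that lacks the usual tail for binding scaffold proteins, at 17.3 ± 4.66 FPKM (SD, n = 3). The other 6 members lay below every rat's value of Cldn12, with group means from 0 FPKM (Cldn6) to 1.49 FPKM (Cldn2), and each overlapped its neighbour in the order.

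In the DEN model group the order was different in its second and lower places. Cldn3 stayed first at 54.2 ± 9.78 FPKM (SD, n = 3), with every rat above the next member. Cldn7 followed at 18.6 ± 14.0 FPKM (SD, n = 3) and overlapped Cldn1 at 17.8 ± 0.725 FPKM (SD, n = 3). Cldn12 (15.0 ± 0.786 FPKM) and Cldn4 (14.8 ± 8.68 FPKM, SD, n = 3) came next, overlapping each other, and were followed by Cldn14, Cldn6, Cldn2, Cldn23 and Cldn5, each overlapping its neighbour. In the PZH administration group the first 4 places were held by Cldn3, Cldn1, Cldn12 and Cldn14, at 54.1 ± 12.2, 27.7 ± 7.66, 17.4 ± 3.41 and 10.7 ± 1.77 FPKM (SD, n = 3), and Cldn1 and Cldn12 overlapped. The other 6 members averaged 0.527 FPKM (Cldn23) to 2.38 FPKM (Cldn2), and all neighbours among them overlapped.

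The share of each member in the summed FPKM of the 10 claudins does not depend on how a library is scaled. Cldn1 and Cldn3 together made up 74.2%, 73.3% and 77.6% of the sum in rats N1, N3 and N12, 44.3%, 61.5% and 48.6% in rats M13, M17 and M24, and 72.5%, 66.0% and 70.0% in rats G27, G28 and G42. Cldn4, Cldn6 and Cldn7, grouped after their values were seen, together made up between 0 and 0.112% in the normal control rats, 29.6%, 12.4% and 37.1% in rats M13, M17 and M24, and 1.93%, 2.91% and 3.24% in rats G27, G28 and G42. The 3 groups did not overlap in this share, and rat M17 was the lowest of the DEN model rats. The share of Cldn1 alone was 28.8% to 38.3% among normal control rats, 10.5% to 15.4% among DEN model rats and 16.0% to 27.5% among PZH administration rats. The share of Cldn3 overlapped between all groups, from 35.1% to 48.7%, from 31.8% to 46.1% and from 38.5% to 56.5%. The summed FPKM itself was 148 to 187 among normal control rats, 121 to 166 among DEN model rats and 112 to 122 among PZH administration rats.

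**Figure D1:**
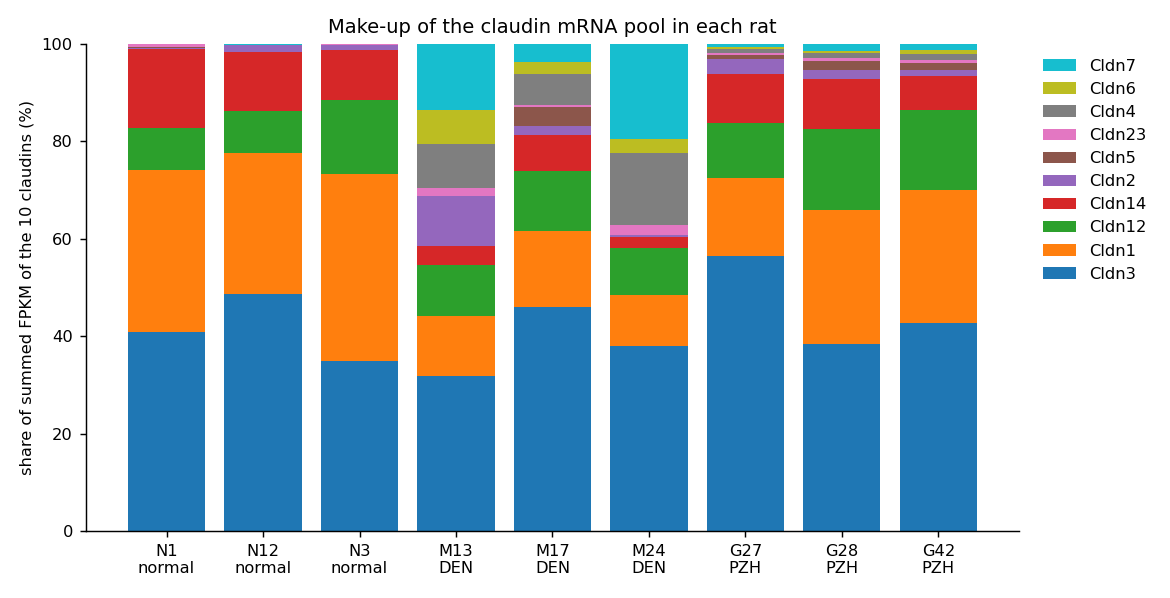
Stacked bars give, for each of the 9 rats, the share (%) of each claudin in the summed FPKM of the 10 claudins. Cldn4, Cldn6 and Cldn7 at the top of the bars take between 12.4% and 37.1% in the DEN model rats (M), at most 0.112% in the normal control rats (N) and between 1.93% and 3.24% in the PZH administration rats (G).

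DEN model against normal control showed which claudins differed after the carcinogen. Cldn4, Cldn6 and Cldn7 rose and Cldn1, Cldn3, Cldn12 and Cldn14 fell, while Cldn2 and Cldn23 did not pass the test and Cldn5 was not tested for lack of counts. At the study's thresholds (a log2 fold change beyond 2 either way with P under 0.001 before adjustment, in edgeR's quasi-likelihood test) 5 of the 10 members were called, 3 higher and 2 lower, where 12.3% of the 14255 genes tested were called (8.81% higher and 3.49% lower). At a Benjamini-Hochberg adjusted p under 0.05, 7 members were called, 3 higher and 4 lower, where 45.8% of all genes were called (25.3% higher and 20.5% lower). In 7 of the 10 members the groups did not overlap, as in 58.8% of all genes tested. The median log2 fold change was 1.03 over the 9 members tested and 0.03 over all genes. That median of the members is the value of Cldn2, which did not pass the test. With library totals the members split into 4 higher (Cldn23 among them) and 2 lower at the adjusted p, and into 3 higher and 0 lower at the study's thresholds, while all genes split into 8126 higher and 958 lower at the adjusted p in place of 3612 and 2917. Cldn4, Cldn6 and Cldn7 passed the filter on low counts through the DEN model group.

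Cldn4, a claudin of ducts, gut and kidney tubules that lies at chr12:24761210-24763005 in the coordinates of the deposited table, whose build was not given in the sources used here, had 0.156, 0 and 0 CPM in rats N1, N3 and N12, 15.0, 11.1 and 27.7 CPM in rats M13, M17 and M24, and 2.13, 2.09 and 2.85 CPM in rats G27, G28 and G42. The 3 groups did not overlap, and the normal control group held 2 counts in all. The ratio of DEN model to normal control was 347, on counts summed over each group and divided by its summed scaled library sizes. Its 95% counting interval ran from 95.95 to 2871, which covers counting error only and leaves out the spread between rats. The adjusted p of edgeR was 0.00015. The PZH administration group was 7.62-fold lower than the DEN model group on average (log2 fold change -2.91, SE 0.38, edgeR adjusted p = 0.0089).

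Cldn7, which lies along the sides of epithelial cells as well as in the junction (chr10:56576428-56578626, same coordinates), had 0, 0 and 0.458 CPM in rats N1, N3 and N12, 21.9, 6.48 and 35.8 CPM in rats M13, M17 and M24, and 1.37, 3.20 and 2.63 CPM in rats G27, G28 and G42. Rat M17 was again the lowest of its group, and every DEN model rat was above every other rat. The mean of the DEN model rats was 140-fold that of the normal control rats (log2 fold change 7.04, SE 0.98, edgeR adjusted p = 0.00089). The 95% counting interval ran from 64.3 to 383. That of edgeR's fitted fold, which takes in the spread between rats, ran from 27.9 to 618. All normal control counts of Cldn7 were in rat N12, and the fitted log2 fold change was 11.64 without that rat and 6.45 to 7.47 without another. It was 8.91-fold lower in the PZH administration group than in the DEN model group (log2 fold change -3.16, SE 0.62, edgeR adjusted p = 0.016).

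Cldn6, a claudin known mainly from embryonic epithelia (chr10:13000090-13002862, same coordinates), had no count in any normal control rat, 9.89, 3.76 and 4.69 CPM in rats M13, M17 and M24, and 1.07, 0.765 and 1.71 CPM in rats G27, G28 and G42. The 3 groups did not overlap here either, and rat M13 was the highest. The DEN model mean was at least 25.7-fold higher than the normal control group, taken at its floor of 3 counts per library (edgeR adjusted p = 0.00075). The PZH administration mean was 5.18-fold lower than the DEN model mean (log2 fold change -2.35, SE 0.48, edgeR adjusted p = 0.018).

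Markers of bile duct cells moved with these 3 claudins. All 8 cholangiocyte markers listed (Krt19, Krt7, Epcam, Sox9, Spp1, Cftr, Muc1 and Cd24) were in the table. Their summed level was between 16.3 and 24.3 CPM in the normal control rats, 794, 325 and 858 CPM in rats M13, M17 and M24, and between 96.4 and 152 CPM in the PZH administration rats, and the 3 groups did not overlap. Krt7 was at 0 in rats N1 and N3, and no other of these markers was at 0 in any rat. All 8 had an edgeR adjusted p under 0.05 in each comparison, higher in DEN model against normal control, lower in PZH administration against DEN model and higher in PZH administration against normal control. In bulk liver, more cells of a type and more RNA per cell cannot be told apart, and the part of these cells in the claudin values was not tested. The sum of stellate cell markers (Des, Lrat, Reln, Pdgfrb, Acta2 and Col1a1, all 6 in the table and none at 0) moved in the same order. It was 123 to 154 CPM in normal control, 480 to 1530 CPM in DEN model and 224 to 273 CPM in PZH administration rats. At an edgeR adjusted p under 0.05, 5 of the 6 were higher in DEN model against normal control and 4 lower in PZH administration against DEN model. Reln and Lrat did not follow the order of the sum. Reln averaged 79.0, 184.5 and 71.1 CPM in the 3 groups. Lrat averaged 21.0, 28.5 and 29.3 CPM and was not called in any comparison. Leukocyte markers (Ptprc, Cd68, Cd3e and Cd79b, all 4 in the table) summed to 55.7 to 79.3 CPM, 111 to 190 CPM and 54.2 to 77.7 CPM, with Cd3e at 0 in rat G42. Intestinal markers (Vil1, Cdh17, Cdx1, Cdx2, Lgals4, Fabp2, Gucy2c and Muc2, of which 7 were in the table) summed to 192 to 214 CPM, 59.5 to 514 CPM and 31.05 to 134 CPM, and Cdx1 was at 0 in every rat but M24. Most of this sum in the normal control rats was Cdh17, at 205, 189 and 211 CPM in rats N1, N3 and N12. Vil1 had 0.156, 0 and 0.534 CPM in rats N1, N3 and N12, 22.0, 4.305 and 22.5 CPM in rats M13, M17 and M24, and 1.45, 2.295 and 1.64 CPM in rats G27, G28 and G42, and was past the study's thresholds in DEN model against normal control (edgeR adjusted p = 0.0012). Gucy2c, past them too (adjusted p = 0.00041), had no count in the normal control rats, 11.7, 38.8 and 32.1 CPM in rats M13, M17 and M24, and 1.02, 1.53 and 12.7 CPM in rats G27, G28 and G42. Of the 4 intestinal markers tested in DEN model against normal control, the other 2 were not called. Cdh17 gave a log2 fold change of -1.01 (edgeR adjusted p = 0.46) and averaged 98.9 CPM in the DEN model group. Fabp2 gave 0.68 (edgeR adjusted p = 0.29). The part of these cell types was not tested.

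Among the members that fell, Cldn1 (chr11:77815181-77830416 in the coordinates of the deposited table) had 212, 256 and 223 CPM in rats N1, N3 and N12, 38.1, 50.5 and 36.6 CPM in rats M13, M17 and M24, and 72.8, 109 and 117 CPM in rats G27, G28 and G42. The groups did not overlap, with the PZH administration rats between the other groups and rat G27 the lowest of them. In DEN model rats Cldn1 was 5.52-fold lower than in normal control rats (log2 fold change -2.45, SE 0.22, edgeR adjusted p = 0.00015). It was 2.39-fold higher in the PZH administration group than in the DEN model group (log2 fold change 1.28, SE 0.23, edgeR adjusted p = 0.014), and 0.64 on the log2 scale with library totals, where the adjusted p was 0.056.

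Cldn14 (chr11:34132581-34142753, same coordinates) had 44.3, 29.6 and 39.8 CPM in rats N1, N3 and N12, 5.18, 10.2 and 3.53 CPM in rats M13, M17 and M24, and 19.7, 17.3 and 13.03 CPM in rats G27, G28 and G42. The groups were again separate and in the same order as for Cldn1, and rat M17 was the DEN model rat nearest to the others. In DEN model rats Cldn14 was 6.02-fold lower than in normal control rats (log2 fold change -2.57, SE 0.37, edgeR adjusted p = 0.0011). It was higher in the PZH administration group than in the DEN model group (log2 fold change 1.43, SE 0.39, edgeR adjusted p = 0.038), and with library totals the log2 fold change was 0.82 at an adjusted p of 0.065.

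Cldn3 had 117, 105 and 168 CPM in rats N1, N3 and N12, 43.3, 67.4 and 58.9 CPM in rats M13, M17 and M24, and 115, 68.2 and 81.7 CPM in rats G27, G28 and G42. Cldn12 had 58.2, 107 and 70.9 CPM in rats N1, N3 and N12, 33.2, 43.0 and 34.8 CPM in rats M13, M17 and M24, and 54.4, 69.6 and 73.8 CPM in rats G27, G28 and G42. For both genes the DEN model rats were below all normal control rats on this scale. Cldn3 was lower by a log2 fold change of -1.18 (SE 0.25, edgeR adjusted p = 0.0058) and Cldn12 by -1.07 (SE 0.25, edgeR adjusted p = 0.0086). With library totals in place of TMM factors the same differences were -0.34 (adjusted p = 0.26) and -0.21 (adjusted p = 0.43), so the adjusted-p calls of this pair rested on the scaling. Cldn1 (-1.60, edgeR adjusted p = 0.00012) and Cldn14 (-1.78, adjusted p = 0.0013) kept theirs with library totals, but were then no longer past the study's log2 fold threshold of 2.

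**Figure D2:**
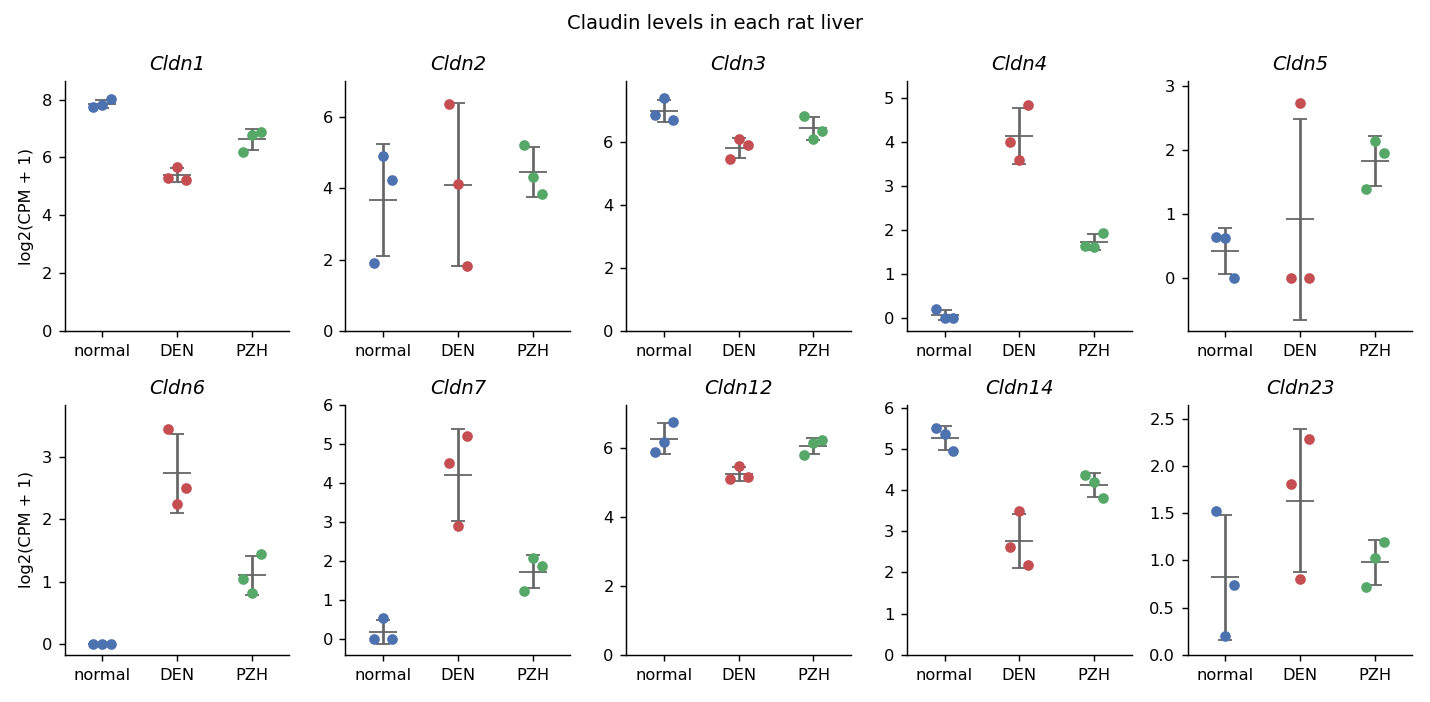
Each panel plots 1 claudin as log2(CPM + 1) in each rat (points), with 3 rats in each of the normal control (normal), DEN model (DEN) and PZH administration (PZH) groups, with the group mean and SD (horizontal mark and bar) and a vertical scale of its own. Cldn4, Cldn6 and Cldn7 are highest in the DEN model rats, Cldn1 and Cldn14 are lowest there with the PZH administration rats in between, and Cldn2, Cldn5 and Cldn23 overlap between normal control and DEN model rats.

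Cldn2, a pore claudin for cations and water that is known from hepatocytes near the central vein, varied widely within groups. It had 2.73, 17.8 and 28.8 CPM in rats N1, N3 and N12, 81.8, 16.3 and 2.53 CPM in rats M13, M17 and M24, and 35.8, 18.9 and 13.3 CPM in rats G27, G28 and G42. The lowest and the highest value of all 9 rats were both in the DEN model group. The log2 fold change of DEN model against normal control was 1.03 with a 95% interval from -1.43 to 3.49 (edgeR adjusted p = 0.46), and -0.80 without rat M13. Pericentral markers (Glul, Cyp2e1, Slc1a2, Lgr5, Axin2 and Rgn, all 6 in the table, Lgr5 at 0 in rat N1) summed to 554.9, 1158 and 453.9 CPM in rats M13, M17 and M24. Their sum lay between 3421 and 6040 CPM in the normal control rats and between 2294 and 4051 CPM in the PZH administration rats. Most of it in normal control was Cyp2e1, which averaged 3945 CPM there and 320.5 CPM in the DEN model group. Of the 5 tested, 3 were lower in DEN model against normal control at an edgeR adjusted p under 0.05. Glul (log2 fold change -0.18, adjusted p = 0.71) and Axin2 (-0.54, adjusted p = 0.25) were not called.

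Cldn23, a less studied claudin, had 1.87, 0.671 and 0.153 CPM in rats N1, N3 and N12, 2.504, 0.742 and 3.86 CPM in rats M13, M17 and M24, and 0.640, 1.04 and 1.28 CPM in rats G27, G28 and G42. All 3 groups overlapped. The log2 fold change was 1.43 in DEN model against normal control, with a 95% interval from -0.43 to 3.28 (edgeR adjusted p = 0.18), and -1.26 in PZH administration against DEN model, with an interval from -2.67 to 0.14 (edgeR adjusted p = 0.18). With library totals these were 2.34 (adjusted p = 0.034) and -1.99 (adjusted p = 0.038).

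Cldn5, the main claudin of endothelium, could not be measured apart from another gene. In the coordinates of the deposited table it lies at chr11:86356294-86357718, inside Cdc45 at chr11:86329012-86358453, a gene of DNA replication. Cldn5 held 7, 0 and 7 counts in rats N1, N3 and N12, 0, 114 and 0 in rats M13, M17 and M24, and 38, 49 and 40 in rats G27, G28 and G42. Cdc45 held 7, 11 and 4 counts in rats N1, N3 and N12, 244, 53 and 201 in rats M13, M17 and M24, and 17, 21 and 8 in rats G27, G28 and G42. The 2 DEN model rats with no Cldn5 count were those with the most Cdc45 counts, and in rat M17, with the most Cldn5 counts, Cdc45 was lowest of its group.

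Strand-specific counting was not stated, and reads of the overlapping pair cannot be told apart here. The pair summed to 14, 11 and 11 counts in rats N1, N3 and N12, to 244, 167 and 201 in rats M13, M17 and M24, and to 55, 70 and 48 in rats G27, G28 and G42. Summed, in a fit added after the data had been seen, the pair was higher in DEN model against normal control (log2 fold change 3.25, edgeR adjusted p = 0.00016) and lower in PZH administration against DEN model (-1.33, adjusted p = 0.024), where Cldn5 alone gave 0.51 (95% interval -2.82 to 3.84, adjusted p = 0.83). The endothelial markers listed (Pecam1, Cdh5, Kdr, Vwf, Tek, Tie1, Erg and Egfl7, of which 7 were in the table) were at 0 in no rat. Their sum was 444.6, 379.5 and 215.7 CPM in rats M13, M17 and M24. It lay between 240 and 320 CPM in the normal control rats and between 239 and 321 CPM in the PZH administration rats. Single markers moved in opposite directions in DEN model against normal control. Vwf (log2 fold change 2.48, edgeR adjusted p = 0.00068) and Cdh5 (0.98, adjusted p = 0.031) were higher and Kdr (-1.15, adjusted p = 0.015) was lower. The other 4 were not called.

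**Figure D3:**
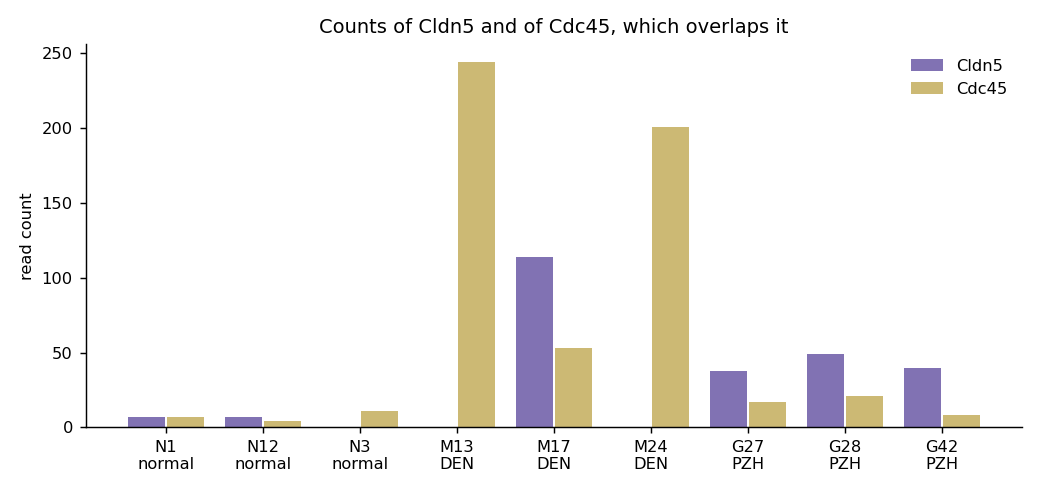
Bars give the read counts assigned to Cldn5 and to Cdc45, whose annotated span contains it, in each of the 9 rats. Rats M13 and M24 hold 0 counts of Cldn5 and 244 and 201 of Cdc45, while the other DEN model rat, M17, holds 114 and 53.

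PZH administration against DEN model compared rats that all received DEN, and it shares the DEN model rats with the comparison above, so that the values of both stand side by side and are not independent. Cldn4, Cldn6 and Cldn7 fell and Cldn1, Cldn12 and Cldn14 rose, each with the values given above, and Cldn2, Cldn3, Cldn5 and Cldn23 did not pass the test. At the study's thresholds 2 of the 10 members were called, both lower (Cldn4 and Cldn7), where 2.43% of 14272 genes were called (1.08% higher and 1.35% lower). At an edgeR adjusted p under 0.05, 6 members were called, 3 higher and 3 lower, where 19.1% of all genes were called (8.72% higher and 10.3% lower). In 7 members the groups did not overlap, beside 40.9% of all genes. The median log2 fold change over the 10 members was -0.01, beside 0.01 over all genes. Cldn12 was higher by a log2 fold change of 0.85 (SE 0.19, edgeR adjusted p = 0.022), and Cldn3 gave 0.67 (SE 0.26, edgeR adjusted p = 0.11).

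The calls of this comparison depended on single rats. Without rat M13, 1 of the 6 calls was left, that of Cldn4. Cldn4 kept its call whichever of the 6 rats was left out, with adjusted p-values from 0.0016 to 0.039. Cldn1 lost it without rat M13 or M24, Cldn6 without M13 or G28 and Cldn7 without M13 or G42, at adjusted p-values up to 0.072. Cldn12 lost it without M13, M24, G28 or G42, and Cldn14 without any rat but M17. The log2 fold changes kept their sign for these 6 genes, from -3.60 (Cldn7) to -1.82 (Cldn6) for those that fell and from 0.78 (Cldn12) to 1.94 (Cldn14) for those that rose. With library totals the members split into 0 higher and 4 lower by edgeR at the adjusted p (Cldn23 among them), beside 556 and 5696 of all genes, in place of 1245 and 1477. On that scale Cldn1, Cldn12 and Cldn14 lost their calls, and Cldn4, Cldn6 and Cldn7 kept theirs at log2 fold changes of -3.63, -3.05 and -3.90.

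PZH administration against normal control compared the treated DEN rats with rats that received neither. Cldn4 and Cldn6 were higher and Cldn1 and Cldn14 lower at an edgeR adjusted p under 0.05, 4 members in all, 2 in each direction, where 5.21% of 13348 genes were called (4.07% higher and 1.15% lower). At the study's thresholds 2 members were called, both higher (Cldn4 and Cldn6), where 2.32% of all genes were called (2.16% higher and 0.165% lower). Cldn4, Cldn5, Cldn6 and Cldn7 passed the filter on low counts here through the PZH administration group. A call of Cldn4 or Cldn6, with 2 and 0 normal control counts, could only be higher. In 6 members the groups did not overlap, beside 24.2% of all genes. The median log2 fold change was 0.30 over the 10 members and -0.02 over all genes.

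The ratio of PZH administration to normal control was 43.8 for Cldn4, from summed counts in the same way, with a 95% counting interval from 11.9 to 366 (edgeR adjusted p = 0.0096). For Cldn6 the PZH administration mean was at least 4.95-fold higher than the normal control group at its floor (edgeR adjusted p = 0.019). Cldn7 gave a log2 fold change of 3.86 (SE 0.94, 8.19 without rat N12), a ratio of 14.0 on summed counts with a 95% counting interval from 6.23 to 38.9, and narrowly missed the threshold at an edgeR adjusted p of 0.051, although its groups did not overlap. Cldn1 was 2.31-fold lower (log2 fold change -1.21, SE 0.23, edgeR adjusted p = 0.021) and Cldn14 lower by a log2 fold change of -1.17 (SE 0.23, edgeR adjusted p = 0.023). Cldn5 gave 2.82 (adjusted p = 0.066), and the pair summed with Cdc45 gave 1.89 (adjusted p = 0.039). Cldn2, Cldn3, Cldn12 and Cldn23 gave 0.46 (95% interval -1.07 to 1.99), -0.55 (-1.13 to 0.04), -0.26 (-0.87 to 0.35) and 0.13 (-1.56 to 1.82). Of the 4 calls, that of Cldn4 was kept whichever rat was left out, and those of Cldn1, Cldn6 and Cldn14 were each lost without 4 of the 6 rats. Without rat G28, N1 or N12, that of Cldn4 alone was left of the 4, and without N12 Cldn7 was called as well. With library totals 4 members were higher (Cldn4, Cldn5, Cldn6 and Cldn7) and 1 lower (Cldn1). On that scale 818 of all 13348 genes were higher and 91 lower, in place of 543 and 153. Cldn14 missed the threshold there at an edgeR adjusted p of 0.052.

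**Figure D4:**
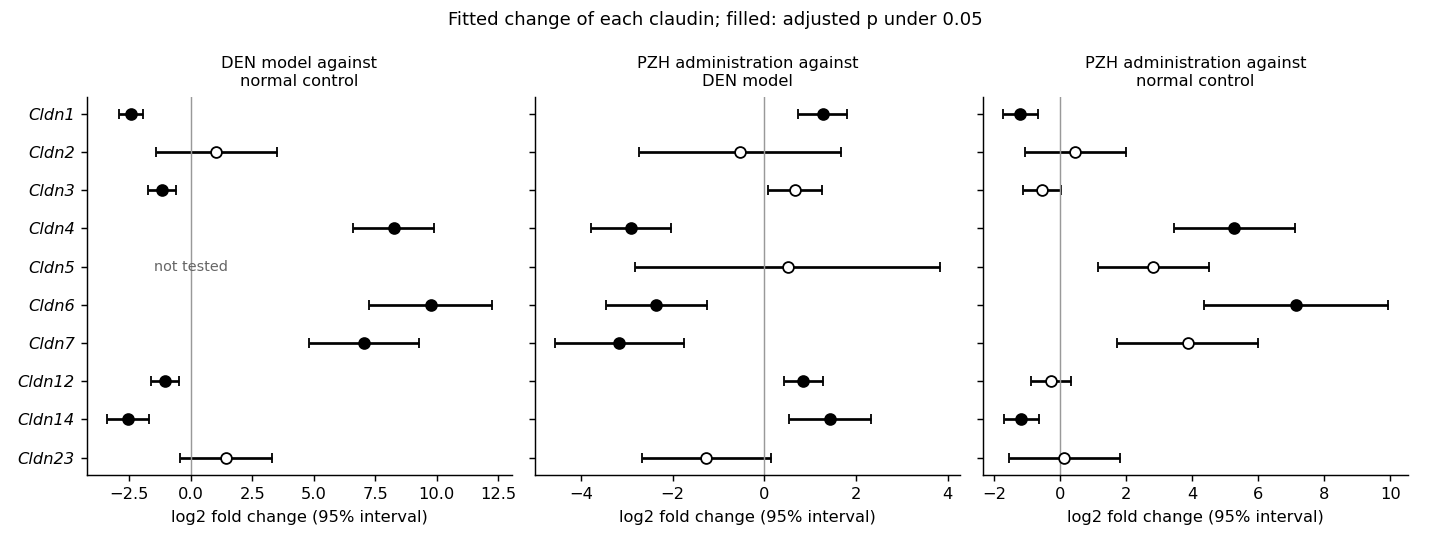
Points give the fitted log2 fold change of each claudin in the 3 comparisons, with its 95% interval (bars), and the horizontal scale differs between panels. Filled points have an edgeR adjusted p under 0.05. For Cldn4, Cldn6 and Cldn7 against normal control the fitted value depends on the prior count or on 1 rat. The normal control rats held 2, 0 and 6 counts of these genes. The counting intervals and lower bounds given for them in the text cover counting error only and leave out the spread between rats.

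Of the other 18 claudin rows in the table, 6 were at 0 in every rat and 8 had more than 3 counts in any rat. Cldn8, known from kidney tubules and colon, had 0, 2 and 0 counts in rats N1, N3 and N12, 141, 102 and 116 in rats M13, M17 and M24, and 33, 58 and 46 in rats G27, G28 and G42. The DEN model rats were all above the PZH administration rats, which were all above the normal control rats. The ratio of DEN model to normal control was 100.1 on summed counts, with a counting interval from 27.5 to 829.5 (edgeR adjusted p = 0.00037). PZH administration gave a log2 fold change of -0.86 against DEN model (SE 0.39, edgeR adjusted p = 0.16), and was higher than normal control (edgeR adjusted p = 0.013).

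Cldn9, which lies 148 bases from Cldn6, had 2, 0 and 0 counts in rats N1, N3 and N12, 19, 17 and 21 in rats M13, M17 and M24, and 7, 1 and 11 in rats G27, G28 and G42. It was higher in DEN model against normal control, at a ratio of 15.9 with a counting interval from 4.202 to 134 (edgeR adjusted p = 0.0078). Cldn18, known from stomach and lung, had 5, 5 and 16 counts in rats M13, M17 and M24 and no count in the other 6 rats, too few for the model (exact two-sided permutation p = 0.1, the smallest that 3 against 3 rats allow). Cldn15, a pore claudin of the gut, had 0, 7 and 10 counts in rats N1, N3 and N12 and between 21 and 56 in the DEN model rats (edgeR adjusted p = 0.082). Cldn10, Cldn11, Cldn17 and Cldn22 had at most 11 counts in any rat and were not tested by the model.

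Claudins work with scaffold and adhesion proteins at the junction. Of 30 other tight junction genes listed, all of them tested, 10 rose and 3 fell in DEN model against normal control at an edgeR adjusted p under 0.05, with a median log2 fold change of 0.32, beside 25.3% higher and 20.5% lower of all genes and a median of 0.03. With library totals 23 rose and 0 fell by edgeR at the same adjusted p, where 8126 of all 14255 genes were higher and 958 lower. Tjp1, a scaffold that binds claudin tails, rose by a log2 fold change of 0.78 (SE 0.22, edgeR adjusted p = 0.021). Another scaffold, Tjp3, gave 0.21 (adjusted p = 0.52), occludin (Ocln) 0.39 (adjusted p = 0.21), and F11r, the adhesion molecule JAM-A, 0.13 (adjusted p = 0.57). The 3 that fell, named after their values were seen, were Lsr (-0.57), Ildr2 (-1.46) and Pard3 (-0.81), of which Lsr and Pard3 turned to 0.28 and 0.04 with library totals.

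Ildr1, a protein of the corners where 3 cells meet, was the 1 gene of this list past the study's thresholds. It had 0, 0 and 0.0763 CPM in rats N1, N3 and N12, 16.0, 6.14 and 6.47 CPM in rats M13, M17 and M24, and 0.896, 2.92 and 3.13 CPM in rats G27, G28 and G42. Its groups did not overlap, and it was higher in DEN model against normal control (edgeR adjusted p = 0.00025) and lower in PZH administration against DEN model (log2 fold change -2.05, SE 0.55, edgeR adjusted p = 0.037). In the latter comparison 4 of the 30 genes fell and 0 rose, by edgeR at an adjusted p under 0.05, where 10.3% of all genes were lower and 8.72% higher. Those that fell had among them Ildr1, Pard6b (-1.01) and Ybx3 (-0.86), the last pair named after their values were seen. The median was -0.04, and with library totals 16 fell and 0 rose, where 5696 of all 14272 genes were lower and 556 higher. In PZH administration against normal control, Ildr1 and Jam2 (log2 fold change 1.02, edgeR adjusted p = 0.04, named after its value was seen) were higher and no gene was lower.

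**Figure D5:**
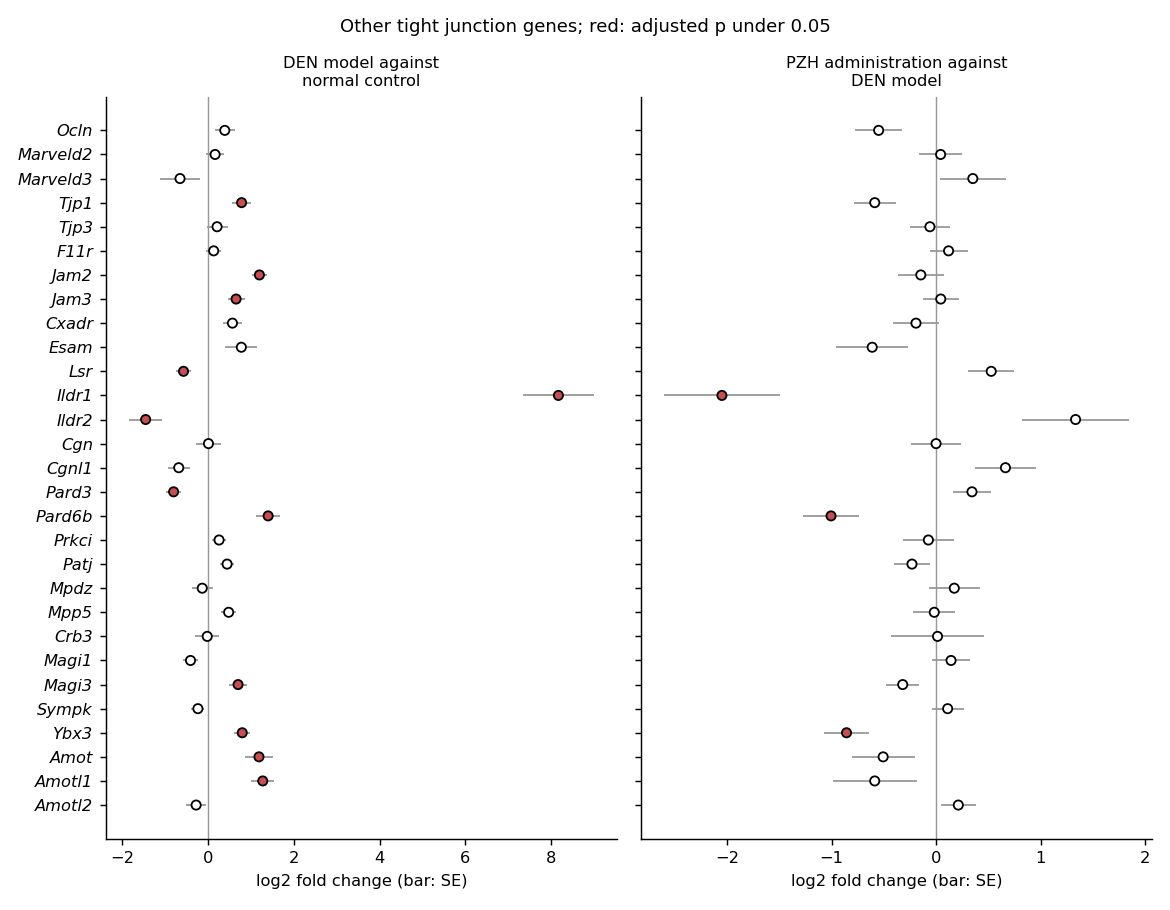
Points give the log2 fold change, with its SE (bars), of the listed tight junction genes other than claudins, 1 of which is not drawn, in DEN model against normal control (left) and PZH administration against DEN model (right), and the horizontal scales differ. Red points have an edgeR adjusted p under 0.05, and Ildr1 is the farthest from 0 on the left.

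Transcription factors known to act on claudin genes in epithelia were taken from a list of 20, of which 16 were tested in DEN model against normal control. At an edgeR adjusted p under 0.05, 12 rose and 2 fell (among them Hnf4a, a hepatocyte factor named after its values were seen), with a median log2 fold change of 1.35, beside 25.3% higher and 20.5% lower of all genes and a median of 0.03. The 4 past the study's thresholds were Grhl2, Klf5, Elf3 and Ehf, all factors of simple or glandular epithelia. Among the 12, named after their values were seen, were also Snai1, a Snail-type factor (log2 fold change 1.48, edgeR adjusted p = 0.031), Zeb1 (0.60, adjusted p = 0.034) and Zeb2 (1.21, adjusted p = 0.00098). Snai2 gave -0.23 (adjusted p = 0.53). Of the factors that rose, Klf5, Ehf, Grhl1 and Ovol1 passed the filter on low counts through the DEN model group. Grhl1 and Ovol1 were named after their values were seen. Whether any of these factors acted on the claudins was not tested. Ehf had 0.468, 0.168 and 0.305 CPM in rats N1, N3 and N12, 41.6, 16.0 and 21.3 CPM in rats M13, M17 and M24, and 4.31, 5.50 and 3.77 CPM in rats G27, G28 and G42. Klf5 had 0.156, 0 and 0.305 CPM in rats N1, N3 and N12, 46.0, 8.12 and 72.9 CPM in rats M13, M17 and M24, and 1.07, 1.74 and 2.06 CPM in rats G27, G28 and G42. For both factors the DEN model rats were above all PZH administration rats, and those above all normal control rats, as for Cldn4, Cldn6 and Cldn7. Elf3 did not follow this order, with 4.29, 1.68 and 2.29 CPM in rats N1, N3 and N12 overlapping 2.985, 2.09 and 2.21 CPM in rats G27, G28 and G42.

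In PZH administration against DEN model 6 of these factors fell and 1 rose (Hnf4a, log2 fold change 1.11, edgeR adjusted p = 0.026), beside 10.3% lower and 8.72% higher of all genes, and 3 were past the study's thresholds. Those 3 were Klf5 (log2 fold change -4.71, SE 0.77, edgeR adjusted p = 0.012), Elf3 (-3.07, SE 0.55, adjusted p = 0.014) and Ehf (-2.51, SE 0.38, adjusted p = 0.0098). Grhl2 had risen in DEN model against normal control by 2.104 (SE 0.31, edgeR adjusted p = 0.0012). Here it gave -0.997 (SE 0.30, edgeR adjusted p = 0.052) and was not called, although its groups did not overlap. With library totals 10 of the factors fell and 0 rose at the adjusted p, where 5696 of all 14272 genes were lower and 556 higher. On that scale 5 were past the study's thresholds, all lower, where 832 of all genes were lower and 93 higher. Hnf4a gave 0.47 with library totals. Cdx1, an intestinal factor of the same list, was at 0 in 8 of the 9 rats. Cdx2, named after its values were seen, had 0.156, 0 and 0.153 CPM in rats N1, N3 and N12. It had 0.679, 0.099 and 17.5 CPM in rats M13, M17 and M24 and no count in the PZH administration rats. Cdx2 was not tested by the model.

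Some genes followed a member closely over the 9 rats, measured as the root mean square difference of log2(CPM + 1) after each gene was centred on its own mean, among 12076 candidates and with no test. Nearest to Cldn4 were Cd44, a surface receptor for hyaluronan (0.28), and Col11a1, a fibrillar collagen (0.29), against a spread of Cldn4 itself of 1.70. Nearest to Cldn7 were Slc25a24 (0.23) and Cyp1b1 (0.25), with a spread of 1.77, and nearest to Cldn6 were Ap1m2, an adaptor subunit of epithelial protein sorting (0.17), and Fzd2, a Wnt receptor (0.20), with a spread of 1.17. Ap1m2 had 11.03, 4.06 and 4.73 CPM in rats M13, M17 and M24 and 0.512, 0.557 and 1.85 CPM in rats G27, G28 and G42. Like Cldn6, it had no count in the normal control rats.

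Nearest to Cldn1 were Id4 (0.24) and Slc25a32 (0.24), with a spread of 1.02, and nearest to Cldn14 were Rapgef4 (0.16) and Slc25a22 (0.17), with a spread of 1.09. Cldn12 was followed by Spryd7 (0.09) and Pon2 (0.11), with a spread of 0.51, and Cldn3 by Stim1 (0.12) and Mrpl20 (0.15), with a spread of 0.56. Cldn2 had no close neighbour, with Slx4ip at 0.90 and Ugt2a3 at 0.94 against a spread of 1.38, and the same held for Cldn5, with Aox1 and Mab21l3 both at 0.61 against 0.98. For Cldn23 the nearest were Rpia (0.22) and Cep295 (0.23), with a spread of 0.60.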

How the data were processed

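Liver RNA of 9 rats was analysed, 3 per group, grouped by the letter of each rat's name. The authors deposited 1 table in which the count columns hold whole read counts per gene without normalization and the FPKM columns hold the authors' values scaled for transcript length and library size. Its log2 fold change, p-value and q-value columns are the authors' own comparisons and were not used. The submitters' processing notes name fastp, HISAT2 2.1.0, StringTie 1.3.3b and edgeR 3.30.3. The genome build, the annotation and the counting options were not given in the sources used here.

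Counts were tested with edgeR 4.0.16 in R 4.3.3. Genes passing filterByExpr were scaled by TMM and tested by quasi-likelihood (glmQLFit, then glmQLFTest) in each comparison's 6 rats, over the whole table with Benjamini-Hochberg adjustment over all genes tested. Calls used the study's thresholds (log2 fold change beyond 2 either way, P under 0.001) or an adjusted p under 0.05. Members left out by the filter had an exact permutation test, two-sided. Floors are 3 counts and intervals are 95%. All named genes follow a rule: the 10 members, other claudins above 3 counts, fixed junction genes, listed genes past the study's thresholds, the 2 nearest genes of each member with a mean of at least 1 CPM, and cell type markers. The members and gene lists were chosen with earlier results of these data known. The alternatives were DESeq2 1.42.0, library totals, no filter, 10 counts in every rat, all 9 rats in 1 fit, rat G27 thinned, a log2 fold change above 1, each rat left out and, added after seeing the data, Cldn5 summed with Cdc45. The scripts were tested on simulated data. Promoter sequences are from RefSeq (GRCr8). Some genes of the lists are not reported here.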

Additional observations from a re-analysis of the deposited data

How the results depend on the processing

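At the study's thresholds, DEN model against normal control gave 5 claudins, and 3 with library totals or 2 when every rat had to reach 10 counts, a filter that left 5 members to test. At an adjusted p under 0.05 it gave 7, and 4 with that filter. PZH administration against normal control gave 2 at the study's thresholds, 4 with DESeq2, 4 with a log2 fold change above 1, and 0 with that filter by edgeR, where 2 of 5 members had an unadjusted p under 0.05. At an adjusted p under 0.05 it gave 4, and 2 with that filter. Leaving out 1 rat gave 4 to 5 and 7 to 7 calls in DEN model against normal control, 1 to 4 and 1 to 8 in PZH administration against DEN model, and 1 to 2 and 1 to 6 in PZH administration against normal control, at the study's thresholds and at the adjusted p. The highest count in PZH administration against DEN model was without rat M17 and the lowest at the adjusted p without rat M13.

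Of 331 values of single members under an alternative, 13 changed sign, 34 lost and 15 gained a call, and 269 did neither. The sign of Cldn2 turned without rat M13 in DEN model against normal control (-0.80, with a range of -0.80 to 1.71 over the rats left out) and in PZH administration against DEN model (1.304, range -1.07 to 1.304). In PZH administration against normal control it turned without G27 (-0.0344) or N1 (range -0.0508 to 1.11). In that comparison Cldn12 gave 0.0017 with library totals and turned without N3 (range -0.46 to 0.0536), and Cldn23 turned without G42, N12 or N3 (-0.11, -0.38 and -0.0224, range -0.38 to 1.21). In PZH administration against DEN model Cldn3 gave -0.0033 with library totals, and Cldn5 gave -1.33 summed with Cdc45 and turned without M13 (-0.086) or M24 (range -0.0863 to 8.70). The cause was not tested. Cldn4, Cldn5, Cldn6, Cldn7 and Cldn23 had few or no counts in normal control rats, which limits the precision of their folds. No paired analysis was possible because the rats' numbers differ between groups.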
